A study of Mus musculus with 4 samples.

Results

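The interferon-stimulated genes described here are 51 named genes whose transcripts are known to accumulate after interferon signalling, out of 31053 genes in the deposited mouse thymocyte tables. They were taken by name, all 51 were present in both gene expression tables, and they were followed in cell barcodes with at least 1000 unique molecules (UMIs). By textbook knowledge 37 were placed on a list leaning towards type I interferon and 14 on a list leaning towards type II interferon, although many genes of either list respond to both. Wild-type mouse thymi had been transplanted and were taken at day 28 under conditions labelled turnover and autonomy, and their thymocytes were sorted as DN3-DN4 (late double negative), ISP (immature single positive) and double positive (DP) cells. A droplet assay then counted the 5′ ends of transcripts in each cell. In turnover the transplanted thymus is repopulated by incoming progenitors, whereas in autonomy it keeps producing T cells from cells it already holds. The labels name no host strain, host genotype or number of animals. Each condition had 1 gene expression library, so no spread between animals can be given, no test was made, and every 95% interval below covers counting error only.

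Type I interferons bind the Ifnar1 and Ifnar2 receptor and, through the kinases Jak1 and Tyk2, lead a complex that includes Stat2 and Irf9 to the interferon-stimulated response element (ISRE). Interferon gamma, the type II interferon, binds Ifngr1 and Ifngr2 and, through Jak1 and Jak2, acts on genes with a gamma-activated site (GAS). Irf1, which is itself induced through a GAS, also binds ISRE-like sequences, so the target genes of both pathways overlap. In the thymus, medullary epithelial cells are a known steady source of type I interferon.

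The sequences just before the start sites show how these elements are arranged in the members with the most UMIs on each list and in a few others. The ISRE was searched as GAAANNGAAA on both strands and the GAS as TTCNNNGAA, which reads the same on both, in the 250 bases before the RefSeq start (GRCm38.p6, the same build as mm10). An ISRE was in 20 of the 39 members with a promoter entry (51.3%) and in 531 of 17492 protein-coding genes (3.04%). A GAS was in 12 of the 39 (30.8%) and in 6.65% of protein-coding genes. Of the 29 type I leaning members with an entry, 12 held an ISRE and 6 a GAS, and of the 10 type II leaning members 8 held an ISRE and 6 a GAS. In the lines below, read 5′ to 3′ on each gene's own strand, capitals mark these motifs. Isg15 and Bst2 lead the type I list by UMIs among the members with an entry, Igtp has a GAS and an ISRE, Irgm1 and Ifit1 have paired ISREs, and Irf1 has a GAS alone. Ifit1, Tgtp1 and Tgtp2 were added after their values were seen.
Isg15, chr4:156200819-156201068, minus strand: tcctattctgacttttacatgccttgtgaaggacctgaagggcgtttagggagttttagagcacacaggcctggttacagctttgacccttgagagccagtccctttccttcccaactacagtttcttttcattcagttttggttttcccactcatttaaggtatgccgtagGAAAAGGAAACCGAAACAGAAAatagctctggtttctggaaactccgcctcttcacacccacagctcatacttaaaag
Bst2, chr8:71537473-71537722, minus strand: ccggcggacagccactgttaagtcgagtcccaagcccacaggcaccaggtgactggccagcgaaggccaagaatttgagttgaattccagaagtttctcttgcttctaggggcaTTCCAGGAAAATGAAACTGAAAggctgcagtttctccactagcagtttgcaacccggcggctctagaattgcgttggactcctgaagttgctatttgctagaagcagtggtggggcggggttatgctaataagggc
Ifit1, chr19:34640639-34640888, plus strand: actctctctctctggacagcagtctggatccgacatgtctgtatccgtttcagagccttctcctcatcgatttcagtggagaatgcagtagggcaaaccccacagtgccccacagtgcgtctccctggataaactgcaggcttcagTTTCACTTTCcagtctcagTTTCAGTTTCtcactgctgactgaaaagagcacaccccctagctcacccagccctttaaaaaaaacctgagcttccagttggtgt
Igtp, chr11:58199306-58199555, plus strand: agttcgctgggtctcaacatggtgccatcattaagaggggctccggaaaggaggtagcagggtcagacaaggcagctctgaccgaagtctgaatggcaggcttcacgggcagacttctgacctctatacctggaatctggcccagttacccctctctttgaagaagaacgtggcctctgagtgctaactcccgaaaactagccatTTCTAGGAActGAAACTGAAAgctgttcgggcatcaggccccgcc
Irgm1, chr11:48871421-48871670, minus strand: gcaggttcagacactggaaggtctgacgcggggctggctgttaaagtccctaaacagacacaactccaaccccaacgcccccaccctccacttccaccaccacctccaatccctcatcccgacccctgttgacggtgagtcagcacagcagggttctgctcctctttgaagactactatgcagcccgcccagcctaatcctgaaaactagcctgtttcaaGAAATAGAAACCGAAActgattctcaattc
Irf1, chr11:53769764-53770013, plus strand: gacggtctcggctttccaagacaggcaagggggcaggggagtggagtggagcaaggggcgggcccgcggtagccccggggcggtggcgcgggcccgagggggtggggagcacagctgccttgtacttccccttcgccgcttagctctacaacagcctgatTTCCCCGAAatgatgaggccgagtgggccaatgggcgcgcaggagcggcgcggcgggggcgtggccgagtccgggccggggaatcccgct
Tgtp1, chr11:48992247-48992496, minus strand: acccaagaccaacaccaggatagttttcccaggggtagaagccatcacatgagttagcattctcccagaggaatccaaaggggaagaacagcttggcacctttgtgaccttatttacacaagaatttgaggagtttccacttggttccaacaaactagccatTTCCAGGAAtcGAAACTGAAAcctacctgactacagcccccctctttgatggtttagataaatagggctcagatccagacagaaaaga
Tgtp2, chr11:49064213-49064462, minus strand: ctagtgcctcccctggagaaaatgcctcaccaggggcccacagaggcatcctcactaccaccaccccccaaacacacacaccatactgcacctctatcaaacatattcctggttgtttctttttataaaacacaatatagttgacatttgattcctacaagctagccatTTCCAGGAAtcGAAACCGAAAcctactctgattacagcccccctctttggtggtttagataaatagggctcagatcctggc

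In Isg15, the ubiquitin-like modifier gene at chr4:156199424-156200818, 3 overlapping ISREs begin 78, 72 and 66 bases before the start. In Bst2 (tetherin, chr8:71534255-71537472) a GAS and the first ISRE overlap. In Igtp (chr11:58199556-58207592), Tgtp1 (chr11:48985329-48992246) and Tgtp2 (chr11:49057196-49064212), all genes of interferon-inducible GTPases, a GAS is followed by an ISRE after 2 bases. Tgtp1 and Tgtp2 are near-identical neighbours in coding sequence, and 163 of their 250 upstream bases aligned as identical (65.2%). In Irgm1 (chr11:48865245-48871420) the paired ISREs lie 30 and 24 bases before the start, and in Ifit1 (chr19:34640889-34650009) they lie 104 and 85 bases before it. The Irf1 gene is at chr11:53770014-53778374. Ifi47, the type II leaning member with the most UMIs, held neither motif in this window, and Irf7, Irf9 and Ifih1 held none either.

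The turnover table held 4374 barcodes and 20163286 UMIs and that of autonomy 4587 barcodes and 16388810 UMIs, of which 4227 and 4414 barcodes passed the minimum, with medians of 2112 and 2430.5 UMIs. Xist had 0 and 5991 UMIs, so the autonomy library mixed Xist-expressing cells with cells that had Y-linked transcripts, and 29 barcode sequences occurred in both libraries. Stages came from clusters built without the members. Small resting DP-like cells, with Rag1 and Cd8a, numbered 2848 in turnover and 2513 in autonomy, and 59 and 854 resting cells lay in clusters of which at least 90% of cells were autonomy cells and are kept apart. Cycling cells (clusters 6 and 7) numbered 688 and 273, Il2ra-high cells 124 and 9, post-selection-like cells 458 and 461, and mature single positive-like cells 26 and 159. Cells with macrophage transcripts numbered 16 and 142. The last 2 kinds of cell are outside the labelled sort. The 2 cycling clusters are also given by number, because the leading 10 genes of cluster 7 include Gzma, an innate lymphocyte gene, beside the cell cycle genes Ccnb2, Cenpa, Cdc6 and Cdc20. None of the 7 listed cycling markers (Mki67, Top2a, Cdk1, Ccna2, Ccnb1, Birc5 and Pclaf) is among these 10. Only Mki67 and Top2a of them were used to name clusters as cycling.

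Interferon-stimulated transcripts took a larger share of the transcriptome in the autonomy library at every stage that could be compared. Summed over the 51 members, they made up 1031 UMIs per 1000000 UMIs (CPM) in turnover and 3451 CPM in autonomy over all cells, a ratio of 3.35 (3.30 to 3.40). With the mature and macrophage-transcript clusters left out together, the ratio was 2.76 (2.71 to 2.81). Within small resting DP-like cells the sum was 1321 CPM in turnover and 3123 CPM in autonomy, a ratio of 2.36 (2.30 to 2.43). In cycling cells it was 682 and 1788 CPM, a ratio of 2.62 (2.54 to 2.71), with 2.14 in cluster 6 and 3.11 in cluster 7. In post-selection-like cells it was 1359 and 3918 CPM, a ratio of 2.88 (2.73 to 3.04). The autonomy-skewed resting clusters were at 998 CPM in their 59 turnover cells and 3006 CPM in their 854 autonomy cells. Within each of the 5 clusters that make up the small resting DP-like cells the ratio lay between 2.18 and 2.57.

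**Figure D1:**
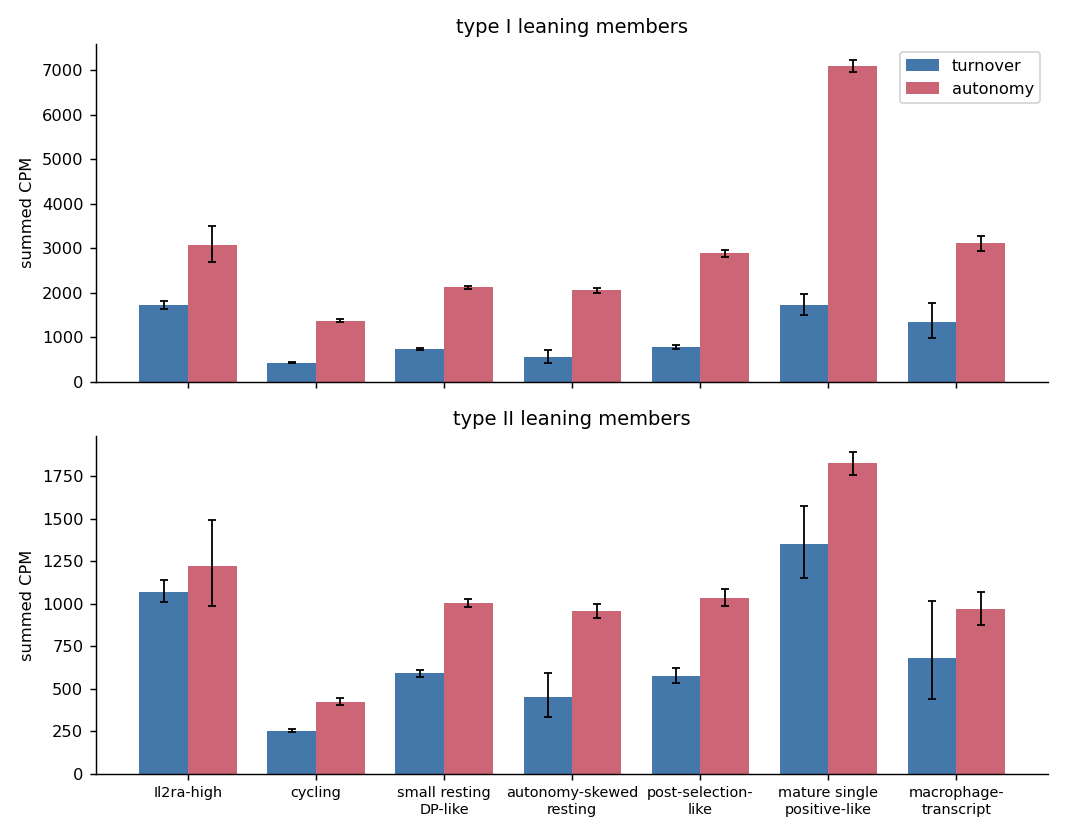
Summed CPM of the 37 type I leaning members (upper panel) and the 14 type II leaning members (lower panel) by cell class, with turnover in blue and autonomy in red and 95% counting intervals as error bars. Autonomy is the higher library in every class of both panels, and its mature single positive-like cells reach 7096 CPM of type I leaning transcripts, but the type II intervals overlap in Il2ra-high cells, of which autonomy has 9, and in macrophage-transcript cells.

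The type I leaning members differed more between the libraries than the type II leaning ones. In small resting DP-like cells the type I leaning sum was 731 CPM in turnover and 2118 CPM in autonomy, a ratio of 2.90 (2.80 to 3.001). The type II leaning sum was 591 and 1005 CPM, a ratio of 1.70 (1.63 to 1.77). The intervals of these ratios did not overlap. The same order held in cycling cells, at 3.19 (3.07 to 3.31) against 1.67 (1.57 to 1.77), and in post-selection-like cells, at 3.68 (3.44 to 3.95) against 1.79 (1.65 to 1.96). Scaling with TMM factors, which adjust for composition, lowered every ratio by the same factor within a class, a shift of 0.29 (log2) over all cells, 0.17 in small resting DP-like cells and 0.20 in cycling cells.

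Of the 43 members with at least 20 UMIs in small resting DP-like cells, 30 were higher by 2-fold or more in autonomy and 0 were lower by as much, where 10.6% of all 10144 genes measured there were higher and 2.06% lower. The median log2 ratio of the members measured was 1.41, against 0.15 for all genes. The type I leaning list had 23 of 31 at least 2-fold higher with a median log2 ratio of 1.66, and the type II leaning list 7 of 12 with a median of 1.20. Over all cells 42 of 50 members were at least 2-fold higher and 0 lower, against 16.6% and 4.07% of all genes. These all-cell counts also mix stage with condition. In cycling cells 31 of 42 members were higher (9.32% of all genes) and in post-selection-like cells 28 of 42 (10.5%), with 0 lower in both (3.11% and 2.27%). Among small resting DP-like cells with Y-linked and no Xist UMIs, a smaller set of 1547 and 513 cells, 19 of 37 members measured were at least 2-fold higher (9.74% of all genes measured in that set) and 0 lower (3.01%). The ratio of their sums there was 1.91 (1.82 to 1.99). The 8 members with too few UMIs in small resting DP-like cells were Ifit3, Ifit3b, Ifi44, Oasl2, Mx1, Samhd1, Gbp5 and Iigp1.

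**Figure D2:**
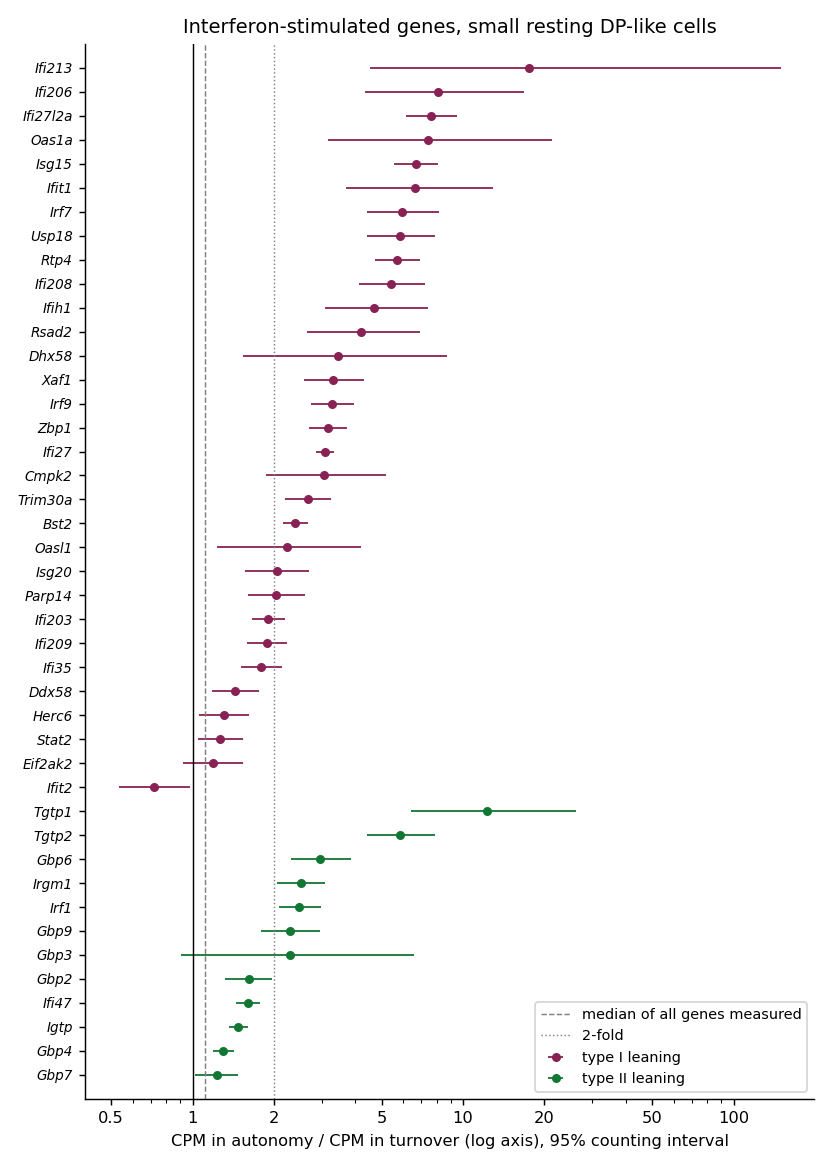
Ratio of CPM in autonomy to CPM in turnover for the 43 members measured in small resting DP-like cells, on a log axis, with 95% counting intervals, type I leaning members in purple and type II leaning members in green. The dashed line is the median of all genes measured and the dotted line marks 2-fold; Ifit2 is the one member below 1, and Igtp, Ifi47 and Gbp4 sit between 1 and 2.

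Among the signalling and transcription factors, 4 of 5 were at least 2-fold higher in small resting DP-like cells (10.6% of all genes). Irf7, the factor that amplifies type I interferon production, had 51 UMIs in turnover and 320 in autonomy (8.79 and 52.2 CPM), a ratio of 5.94 (4.41 to 8.15). Usp18, which removes Isg15 from proteins and damps receptor signalling, had 58 and 358 UMIs (9.99 and 58.4 CPM), a ratio of 5.85 (4.42 to 7.86). These were the genes of the group with the widest gap. Irf9, the DNA-binding part of the ISRE complex, went from 26.9 CPM (156 UMIs) to 88.3 CPM (541 UMIs), a ratio of 3.29 (2.74 to 3.95). Irf1 was at 29.97 CPM (174 UMIs) and 74.4 CPM (456 UMIs), a ratio of 2.48 (2.08 to 2.97). Stat2, the partner of Irf9, had 194 and 259 UMIs and the smallest ratio of the group, 1.26 (1.05 to 1.53).

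The nucleic acid sensors were more mixed. Zbp1, a sensor of Z-form nucleic acid, had 203 UMIs in turnover and 679 in autonomy (34.97 and 111 CPM), a ratio of 3.17 (2.71 to 3.73). Ifih1 (MDA5, a sensor of long double-stranded RNA) had 27 and 134 UMIs, a ratio of 4.70 (3.09 to 7.40). Ddx58 (RIG-I) was nearer to 1, with 170 and 258 UMIs and a ratio of 1.44 (1.18 to 1.76). Eif2ak2 (PKR, a kinase that halts translation on double-stranded RNA) had 113 and 142 UMIs, and its ratio of 1.19 (0.923 to 1.54) had an interval that included 1. Oas1a, Dhx58 and Oasl1, measured from 37 to 57 UMIs, had ratios of 7.42, 3.43 and 2.23, and Oasl2 had 0 and 5 UMIs.

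Of the 12 antiviral effectors measured, 10 were at least 2-fold higher (10.6% of all genes). Isg15, the modifier joined to proteins after interferon, had 136 UMIs in turnover and 959 in autonomy (23.4 and 157 CPM), a ratio of 6.68 (5.58 to 8.06). Rtp4, an interferon-induced chaperone, had 133 and 801 UMIs (22.9 and 131 CPM), a ratio of 5.71 (4.74 to 6.91). Bst2, which tethers budding virus, had 483 and 1222 UMIs (83.2 and 199 CPM), a ratio of 2.40 (2.16 to 2.67), and Trim30a had 142 and 399 UMIs (24.5 and 65.1 CPM), a ratio of 2.66 (2.19 to 3.25). Ifit1, which binds foreign RNA ends, was rare in turnover, with 13 UMIs against 91 and a ratio of 6.63 (3.69 to 12.9). Its neighbour in the same family went the other way: Ifit2 had 105 UMIs in turnover and 80 in autonomy (18.1 and 13.1 CPM), a ratio of 0.722 (0.533 to 0.975). Elsewhere the interval of Ifit2 included 1, at 0.861 (0.727 to 1.02) over all cells, 0.810 in cycling cells and 1.02 in post-selection-like cells. The other effectors measured (Rsad2, Xaf1, Cmpk2, Isg20, Parp14 and Herc6) had ratios from 1.31 for Herc6 to 4.20 for Rsad2.

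The Ifi genes, named for their induction by interferon, held the largest ratios of the type I list. Ifi27 had 884 UMIs in turnover and 2882 in autonomy (152 and 470.4 CPM), a ratio of 3.09 (2.86 to 3.33). Ifi27l2a, a relative of Ifi27, had 98 and 788 UMIs (16.9 and 129 CPM), a ratio of 7.62 (6.17 to 9.50). Ifi203 and Ifi35 were nearly 2-fold higher, with 299 and 602 UMIs and a ratio of 1.91 (1.66 to 2.20) for Ifi203 and 203 and 385 UMIs and a ratio of 1.80 (1.51 to 2.14) for Ifi35. The Ifi20x genes are a tandem family of similar DNA-binding proteins, so reads may be split between them. Within it Ifi213 had 2 and 37 UMIs (ratio 17.5, 4.52 to 150), Ifi206 had 11 and 94 (8.10), Ifi208 had 62 and 355 (5.43), and Ifi209 had 203 and 403 (1.88).

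The interferon-inducible GTPases, which attack the vacuoles of intracellular pathogens, differed widely among themselves. Igtp had 1014 UMIs in turnover and 1578 in autonomy (175 and 258 CPM), a ratio of 1.47 (1.36 to 1.60). Ifi47 had 620 and 1050 UMIs (107 and 171 CPM), a ratio of 1.60 (1.45 to 1.77), and Gbp4 had 861 and 1179 UMIs (148 and 192 CPM), a ratio of 1.30 (1.19 to 1.42). Igtp, Ifi47 and Gbp4 thus made up most of the type II leaning UMIs and all lay under 2-fold. Irgm1, which regulates the other GTPases of its family, had 129 and 342 UMIs (22.2 and 55.8 CPM), a ratio of 2.51 (2.05 to 3.1002). Tgtp1 and Tgtp2 had 10 and 57 UMIs in turnover and 129 and 352 in autonomy, with ratios of 12.2 (6.44 to 26.1) and 5.85 (4.41 to 7.88), and reads may be split between these copies. The guanylate-binding proteins Gbp2, Gbp3, Gbp6, Gbp7 and Gbp9 had ratios from 1.23 for Gbp7 to 2.97 for Gbp6. Among the 33 measured members with a promoter entry, ratios ran from 1.23 to 17.5 with a median of 4.20 in the 17 with an ISRE and from 0.722 to 5.94 with a median of 1.98 in the 16 without, and the ranges overlapped.

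Among the 42 members measured in both cycling and small resting DP-like cells, those whose intervals of the ratio did not overlap between these stages are named here. The same comparison was not made over all genes, so their number is not read as a trait of the members. Ifi208 had 7 UMIs in turnover and 76 in autonomy among cycling cells, a ratio of 29.9 (13.8 to 76.8), where resting cells gave 5.43 (4.13 to 7.23). Ifi209 gave 6.46 (3.75 to 11.5) in cycling and 1.88 (1.59 to 2.24) in resting cells, and Trim30a 7.01 (5.03 to 9.89) and 2.66 (2.19 to 3.25). Smaller steps in the same direction were seen for Ifi27 (4.27 in cycling and 3.09 in resting cells), Ifi203 (3.17 and 1.91), Igtp (2.11 and 1.47) and Gbp7 (2.04 and 1.23). The ratio was lower in cycling cells for Irf1, at 1.45 (1.21 to 1.73) against 2.48 (2.08 to 2.97), and for Ifi47, at 1.22 (1.09 to 1.36) against 1.60 (1.45 to 1.77). In cluster 6 and cluster 7 Trim30a was at 5.47 and 8.76, and Ifi208 at 50.5 and 20.2. Herc6 was at 1.08 in cycling cells, which TMM scaling would move under 1, and Ifit2 and Stat2 were under 1 there (0.810 and 0.936).

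A response can differ in how many cells show it or in how strongly each shows it, so members were counted cell by cell after each cell was thinned to 1000 UMIs. A cell was said to carry the response when at least 3 different members had a UMI. Among small resting DP-like cells, the response was carried by 317 of 2848 cells in turnover (11.1%, 9.998 to 12.3) and by 978 of 2513 in autonomy (38.9%, 37.0 to 40.9), a ratio of shares of 3.50 (3.12 to 3.92). Without thinning the shares were 35.5% and 76.5%, at median depths of 1869 and 2268 UMIs. The size of the ratio of shares moved with these choices: it was 2.16 without thinning, 2.03 in cells thinned to 2000 UMIs, 2.04 with at least 2 members and 5.1 with at least 4. The threshold cuts a continuous range: 560 and 597 cells had exactly 2 members and 192 and 415 had exactly 3. The whole distribution lay higher in autonomy, since cells with no member numbered 928 (32.6%) in turnover and 311 (12.4%) in autonomy. At the other end, 14 turnover cells (0.492%) and 100 autonomy cells (3.98%) had at least 8 different members.

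**Figure D3:**
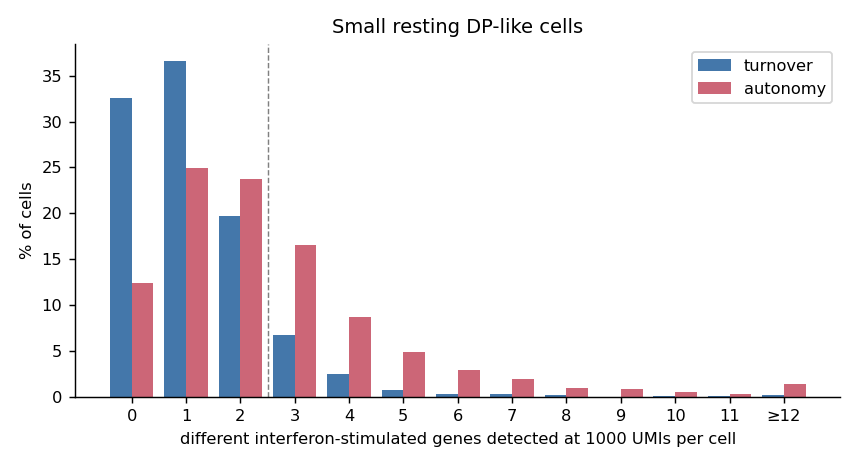
Percentage of small resting DP-like cells by the number of different interferon-stimulated genes detected after thinning to 1000 UMIs, turnover in blue and autonomy in red, with the threshold of 3 as a dashed line. Cells with no member are 32.6% of turnover and 12.4% of autonomy cells, and from 2 members upwards the autonomy bar is the higher one. The last bar pools cells with 12 or more members.

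The share of cells that carried the response followed the stage in each library. In turnover it was 4.07% of cycling, 11.1% of small resting DP-like, 12.9% of post-selection-like, 45.2% of Il2ra-high and 53.8% of mature cells. In autonomy it was 22.0% of cycling, 38.9% of small resting DP-like, 45.1% of post-selection-like and 89.3% of mature cells. Of the neighbours in these orders, resting and post-selection-like cells of turnover had overlapping intervals (9.998 to 12.3 and 9.95 to 16.3), as did Il2ra-high and mature cells of turnover, and resting and post-selection-like cells of autonomy (37.0 to 40.9 and 40.5 to 49.8). The ratio of shares was 5.40 (3.53 to 8.27) in cycling and 3.50 (2.70 to 4.54) in post-selection-like cells. Cycling cells had medians of 15400.5 and 13517 UMIs, and their unthinned shares were 88.2% and 97.1%. Unthinned, the shares were 45.4% and 82.4% of post-selection-like cells and 88.5% and 99.4% of mature cells, and 98.4% of Il2ra-high cells in turnover.

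Most cells that carried the response showed members of both lists. Both lists were present in 79.8% of carrying turnover cells and 81.7% of carrying autonomy cells among small resting DP-like cells. Type I leaning members alone were present in 13.9% and 16.2%, and type II leaning members alone in 6.31% and 2.15%. The list that leans to type II has fewer members, which by itself makes cells with that list alone rarer. The question whether the response came as a unit was then put with 1 list at a time, counting the other list in the same cells. Cells with 0 type I leaning members had 0.565 type II leaning UMIs per 1000 in turnover and 0.774 in autonomy. Cells with at least 3 had 1.48 (1.26 to 1.72) and 1.68 (1.57 to 1.79). Between 0 and 2 type I leaning members the type II level moved little, from 0.565 to 0.654 in turnover and from 0.774 to 0.891 in autonomy, and the step came at 3 or more. At a matched number of type I leaning members, autonomy cells still had more type II leaning UMIs, by ratios of 1.37 (1.23 to 1.53), 1.43 (1.27 to 1.61) and 1.36 (1.14 to 1.64) at 0, 1 and 2. At 3 or more the ratio was 1.14, and its interval of 0.964 to 1.35 included 1.

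Counted the other way, cells with 0 type II leaning members had 0.628 type I leaning UMIs per 1000 in turnover and 1.56 in autonomy, a ratio of 2.48 (2.29 to 2.68). Cells with at least 3 type II leaning members had 3.52 (3.02 to 4.08) and 5.58 (5.22 to 5.96), a ratio of 1.58 (1.35 to 1.87). Autonomy cells in which no type II leaning transcript was detected thus still had more type I leaning UMIs than such turnover cells. With 1000 UMIs per cell, a count of 0 members is often a matter of sampling.

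**Figure D4:**
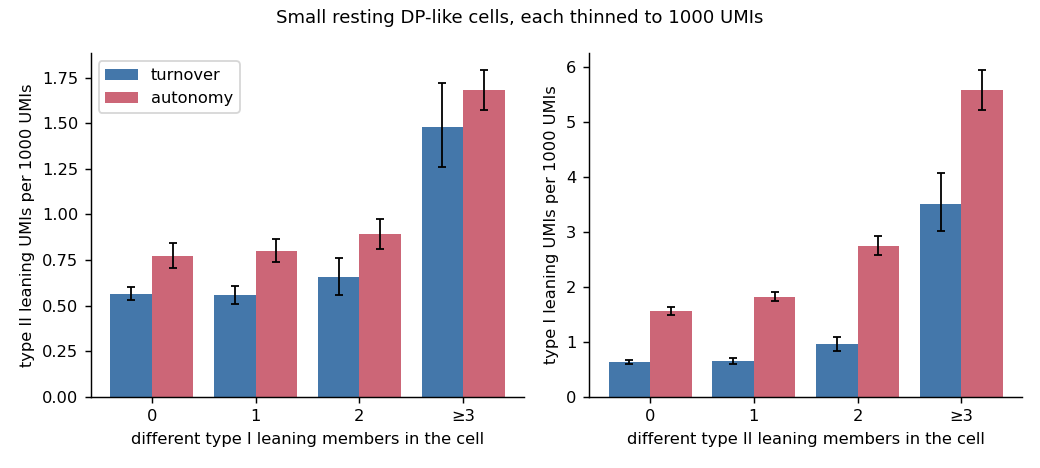
Type II leaning UMIs per 1000 UMIs by the number of different type I leaning members in the cell (left), and the reverse (right), in small resting DP-like cells thinned to 1000 UMIs, turnover in blue and autonomy in red, with 95% counting intervals. The left panel steps up at 3 or more members, to 1.48 and 1.68. The right panel rises already from 1 member (0.654 and 1.83) to 2 (0.953 and 2.75), and reaches 3.52 and 5.58 at 3 or more. The last bin pools all cells with 3 or more members.

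Members differed in how far their transcripts were gathered in responding cells. In the thinned small resting DP-like cells of autonomy, all 34 Ifit1 UMIs lay in the 38.9% of cells that had at least 3 other members (lower limit 89.7%). The share was 89.5% (75.2 to 97.1) for Rsad2, 81.0% (76.7 to 84.8) for Isg15, 80.8% for Tgtp1 and 72.2% (67.0 to 77.0) for Rtp4. At the other end, cells with at least 3 other members held 38.7% (34.3 to 43.2) of Gbp4 UMIs and were 34.7% of cells, and held 41.5% (37.7 to 45.4) of Igtp UMIs and were 33.9% of cells. Ifit2 had 5 of 27 UMIs in such cells (18.5%, 6.30 to 38.1), under their 38.6% share of cells. In turnover Ifit2 lay the other way, with 11 of 50 UMIs in such cells (22%, 11.5 to 36.0), above their 10.8% share of cells. The median over the measured members was 59.6% for the type I leaning list (27 members) and 55.9% for the type II leaning list (11 members), so both lists held gathered and spread genes.

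Genes outside the list were ranked by the lower limit of the interval of their ratio between carrying and other small resting DP-like cells of autonomy. The leading 10 were Ifitm3, Trdv1, Slfn1, Trav8-2, Nlrc5, Rnf213, Phf11c, Slfn8, Lgals3bp and Parp9, and 6 of them were on the lists of other interferon pathway genes, while the median ratio of all 9423 genes measured was 0.987. Ifitm3, which blocks viral entry, had 34 UMIs in carrying and 2 in other cells. Nlrc5, the activator of class I antigen presentation genes, had 52 and 12 UMIs, a ratio of 6.62 (3.49 to 13.6). The T cell receptor segments Trdv1 and Trav8-2 had ratios of 14.1 and 7.30 in autonomy but 0.425 (0.180 to 0.858) and 0.468 (0.221 to 0.883) in turnover. For Ifitm3, Nlrc5, Rnf213, Phf11c, Slfn8, Lgals3bp and Parp9 the ratio was above 1 in both libraries.

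The wider pathway was read in the same small resting DP-like cells, where 10.6% of all genes measured were at least 2-fold higher and 2.06% lower. None of the 21 interferon genes reached 20 UMIs over both libraries, in these cells or over all cells. Of the 5 receptor genes measured 0 were at least 2-fold higher: Ifngr1 was at 1.62 (1.56 to 1.69), Ifnar1 at 1.35 (1.17 to 1.57), Ifnar2 at 1.24 (1.07 to 1.44) and Ifngr2 at 1.05 (0.847 to 1.31). Of the 6 negative regulators 3 were at least 2-fold higher. Socs3 had 94 and 1387 UMIs (ratio 13.98, 11.3 to 17.4), Socs1 2243 and 5337 UMIs (2.25, 2.15 to 2.37), and Sh2b3 25 and 83 UMIs (3.15). Of 7 sensing and induction genes 1 was, Irf8, with 4 and 22 UMIs. Of 12 antigen presentation genes induced by interferon gamma 4 were, namely H2-K1 (3.49), H2-D1 (2.59), Tap1 (2.17) and Nlrc5 (6.06).

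Among 25 further interferon-responsive genes measured, 7 were higher by 2-fold or more (10.6% of all genes) and 1 was lower by as much (2.06%). Parp12 had 5 and 55 UMIs (ratio 10.4, 4.21 to 33.4), Lgals3bp 151 and 547 (3.43, 2.86 to 4.14), and Slfn1 0 and 48 UMIs, at least 15.2-fold higher against a floor of 3 counts in the turnover cells. Oas3, Ifi214, Slfn5 and Adar completed the 7. Ly6c1 was the lower gene, with 27 and 12 UMIs. Ly6e, the most abundant of this list, was also below 1, with 14582 and 12259 UMIs and a ratio of 0.797 (0.778 to 0.816).

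Stage levels set mature cells apart in the autonomy library. In turnover the 26 mature cells summed to 3070 CPM (2766 to 3399), an interval that overlapped that of Il2ra-high cells (2685 to 2896). In autonomy, 34 of 50 members measured were at least 2-fold higher in mature single positive-like than in small resting DP-like cells (10.3% of all genes), and Ifi27 was the 1 member at least 2-fold lower (35% of all genes). Several members were close to absent from resting cells and found mainly in these 159 cells, which held 10.0% of the autonomy UMIs. They held 189 of 217 Ifit3 UMIs (87.1%), 97 of 111 Ifit3b UMIs (87.4%), 239 of 268 Samhd1 UMIs (89.2%), 38 of 45 Mx1 UMIs (84.4%) and 214 of 295 Ifi213 UMIs (72.5%). Ifit3 and Ifit3b are near-identical copies, so the split between them is uncertain. Ifi27l2a was at 2407 CPM in mature and 129 CPM in resting cells of autonomy, with 3924 of its 6324 UMIs in the mature cells (62.0%), and although left out of the clustering it was among the leading 10 genes of that cluster. The 6 innate lymphoid and NK cell markers, which include Nkg7, summed to 1012 CPM in these mature cells and 140 CPM in resting cells of autonomy. In turnover they summed to 2052 and 55.6 CPM. In the mature cells of each library 3 of the 6 were at 0, so these sums rest on the others. Nkg7 and Ctsw, genes of cytotoxic cells, are among the leading genes of the mature cluster. The part of these transcripts in the mature values was not tested. Ifi27 lay the other way, at 229 CPM in mature and 470.4 CPM in resting cells, with 5.62% of its UMIs in mature cells. The all-cell ratios of such members therefore mix stage with condition: Ifit3 had 5 and 217 UMIs over all cells but 1 and 5 in resting cells.

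**Figure D5:**
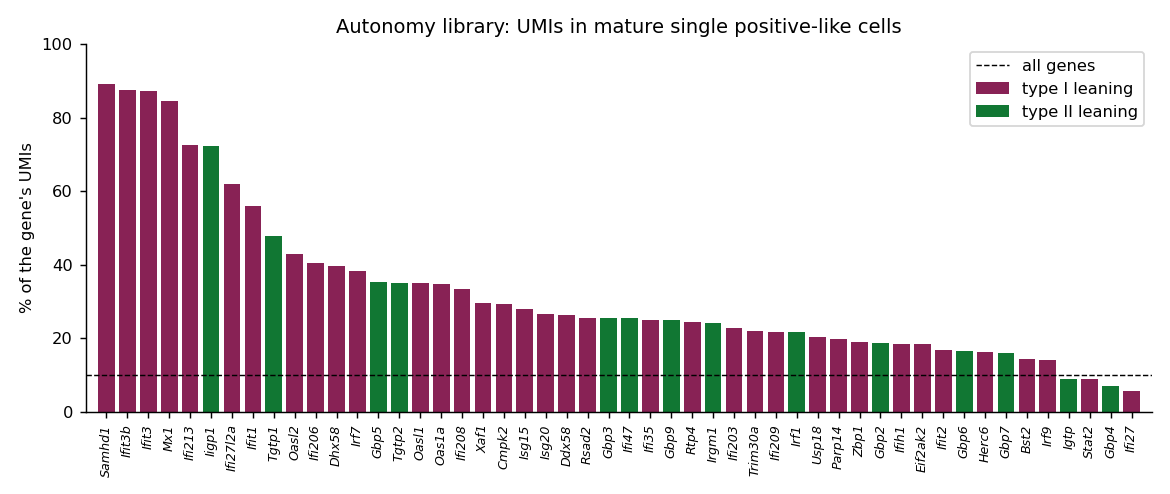
Percentage of each member's autonomy UMIs that lay in the 159 mature single positive-like cells, for members with at least 20 autonomy UMIs, type I leaning in purple and type II leaning in green, with the 10.0% share of all UMIs as a dashed line. Samhd1, Ifit3b, Ifit3 and Mx1 are above 84%, while Igtp, Stat2, Gbp4 and Ifi27 are under the line.

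In turnover, Il2ra-high cells, which carry the early marker Il2ra, had more interferon-stimulated transcripts than small resting DP-like cells. The members summed to 2789 CPM (2685 to 2896) in these 124 cells against 1321 CPM in small resting DP-like cells, and 45.2% of them carried the response. Of 39 members measured, 21 were higher than in resting cells by 2-fold or more (11.7% of all genes) and 6 were lower by as much (21.7%). Isg15 was at 134 CPM in Il2ra-high and 23.4 CPM in resting cells, Rtp4 at 137 and 22.9 CPM, Bst2 at 515 and 83.2 CPM, and Tgtp1 at 93.4 and 1.72 CPM. The 6 lower members were Ifit2, Rsad2, Ifi208, Ifi209, Ifi27l2a and Igtp, of which Igtp was at 57.5 and 175 CPM. The leading genes of this cluster include Tcrg-C1 and Tcrg-C2, which are also gamma-delta genes, and the 9 such cells of autonomy were too few to compare. Cycling cells had the lowest sums of either library, and 20 of 40 members in turnover and 18 of 43 in autonomy were at least 2-fold lower there than in resting cells, where 34.8% and 34.4% of all genes were. Gbp3 was the 1 member at least 2-fold higher in cycling cells of both libraries (13.7% and 12.8% of all genes). Post-selection-like cells had 2 of 36 members at least 2-fold above resting cells in turnover (6.25% of all genes) and 8 of 44 in autonomy (7.18%), and Isg15 was among them in both. In turnover 2 members, Bst2 and Gbp6, were lower by as much (9.74% of all genes), and in autonomy 0 were (11.6%).

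Transcripts of other cells were set beside these values. The 7 macrophage markers summed to 1.89 CPM (11 UMIs) in turnover and 12.4 CPM (76 UMIs) in autonomy small resting DP-like cells, a ratio of 6.55. Within autonomy they summed to 17.3 CPM in carrying and 9.18 CPM in other cells, with 1 of the 7 at 0 in each. Within turnover they summed to 1.54 CPM (1 UMI) in carrying and 1.94 CPM (10 UMIs) in other cells. The 8 dendritic cell markers summed to 220 and 196 CPM (ratio 0.890), and to 197 and 194 CPM in carrying and other cells of autonomy. The 6 innate lymphocyte markers summed to 55.6 and 140 CPM (ratio 2.52), with 3 of them at 0 in turnover and 1 in autonomy. The 6 DN3 markers summed to 139 CPM in carrying and 119 CPM in other cells of turnover, and to 879 and 897 CPM in those of autonomy. The part of these markers in the interferon values was not tested. Ifit3, Mx1 and Samhd1, whose autonomy UMIs lay mainly in mature cells, had 5, 0 and 3 UMIs in its small resting DP-like cells.

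The autonomy values were also split by sex-linked transcripts, because that library held both kinds. Among small resting DP-like cells of autonomy, 979 cells with Xist only summed to 3223 CPM (3153 to 3294), 513 with Y-linked transcripts only to 2563 CPM (2476 to 2652), and 1008 with neither to 3344 CPM (3269 to 3420). Carrying cells were 41.1% (38.0 to 44.2), 33.1% (29.1 to 37.4) and 39.6% (36.5 to 42.7) of them. The gap between Xist and Y-linked cells was 2249 against 1674 CPM for type I leaning and 974 against 889 CPM for type II leaning members. All of these lay above turnover, where the 1547 cells with Y-linked transcripts only summed to 1345 CPM (1306 to 1385), with 11.6% carrying. Whether the Xist and Y-linked cells came from separate animals or from graft and host is not given in the labels.

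Autonomy thymocytes often shared a T cell receptor beta (TRB) chain, so the response was compared among cells with the same chain. Of 1850 small resting DP-like cells of autonomy with 1 productive TRB chain, 617 belonged to 19 chains with at least 20 cells each, and 230 of these 617 carried the response (37.3%). By chain the share ran from 10% to 60%, with a median of 35.7%. The largest chain had 46 of 87 cells carrying it (52.9%, 41.9 to 63.7), and the third largest 6 of 49 (12.2%, 4.63 to 24.8). These intervals did not overlap, but this is 1 pair picked out of 19 chains. The interval of the second largest chain (35.7%, 23.4 to 49.6) overlapped both. Summed members by chain ran from 1165 to 5221 CPM. Among cells whose chain was seen in 1 cell only, 104 of 285 in autonomy (36.5%, 30.9 to 42.4) and 251 of 2344 in turnover (10.7%, 9.48 to 12.03) carried it. The gap between the libraries was therefore present in cells that shared no TRB chain, while cells of 1 chain are not independent and intervals over all autonomy cells can be too narrow.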

How the data were processed

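The deposited gene expression tables held counts of UMIs per gene and cell, and the deposited V(D)J tables held contigs with counts of UMIs, for which the submitters' processing notes name the build mm10 and the tools Cell Ranger 3.0.2 and Seurat 3.1.3.9002. No source used here gives the annotation or the cell calling. The 51 members, their type lists, the pathway lists and the comparisons were chosen with earlier results of these data known. Symbols were matched to the RefSeq table of GRCm38.p6 (25166 of 31053, all 51 members), and 39 members had a promoter entry.

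Barcodes with at least 1000 UMIs were kept, leaving out 147 turnover and 173 autonomy barcodes, and no doublet was called or removed. Clusters came from 2000 variable genes without members, other listed interferon genes, TCR segment or sex-linked genes, centred per library, with 30 principal components, 15 nearest neighbours and a Leiden resolution of 1. They were named by marker levels with thresholds set after the data were seen, and an 11-cell cluster stayed unnamed. UMIs were summed per library and class and divided by the total of the class. Ratios of genes with at least 20 UMIs carry a conditional exact binomial interval, shares a Clopper-Pearson interval, and ratios of shares an interval on the log scale, which cover counting error only, at 20057936 and 16260384 UMIs in the kept cells. Cells were thinned to 1000 UMIs to count members. In each role group the 4 members with the most UMIs are given in full, and so is any member below 1. The ratios were tested on counts simulated for the small resting DP-like comparison. All 100 genes with a true fold of 4 came out at 2-fold or more, and intervals covered 96% of these. The counts were drawn independently, as the interval assumes. Gathering of UMIs within cells or TRB chains was not simulated, so coverage under it is not known. Filters, scaling, thinning, clustering and the threshold were varied. TMM factors came from edgeR 4.0.16 in R 4.3.3, clusters from scanpy 1.11.5 with leidenalg 0.10.2, anndata 0.12.19 and scikit-learn 1.9.0, intervals from scipy 1.17.1, and the rest from Python 3.11.15 with pandas 2.3.3, numpy 2.4.6 and matplotlib 3.10.9.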

Additional observations from a re-analysis of the deposited data

How the results depend on the processing

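Of 84 alternatives over 9 results, 49 stayed within the interval of the reported value (counts within 1.5 times), 35 moved beyond it, and all 65 ratios lay above 1. Values are given as ratios of autonomy to turnover in the order all cells, small resting DP-like, cycling, then type I and type II leaning members in small resting DP-like cells, where they moved. With TMM factors the sums were at 2.73, 2.1, 2.29, 2.58 and 1.52. With at least 2000 UMIs per cell they were at 3.59 over all cells, 2.43 in resting cells and 1.81 for type II. Thinned cells gave 2.63 over all cells and 3.24 in cycling cells, and leaving out the mature and macrophage-transcript clusters gave 2.76. With members kept among the variable genes, the values were 2.54, 2.4 (cycling), 3.12 and 1.81. Without Ifi27, the member with the most UMIs, they were 2.27 in resting and 2.4 in cycling cells, and at a resolution of 2 cycling cells were at 2.5. In cells with Y-linked and no Xist UMIs, chosen after the data were seen, the sums were at 3.04, 1.91, 2.87, 2.23 and 1.5, the shares of carrying cells at 3.08 (all) and 2.86 (resting), and 19 of 37 members measured were at least 2-fold higher in resting cells, beside 30 of 43 in all resting cells.

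The ratio of shares of carrying cells, over all cells and then in small resting DP-like cells, was 1.7 and 2.16 without thinning, 2.25 and 2.03 with cells thinned to 2000 UMIs, 2.15 and 2.04 with at least 2 members and 5.27 and 5.1 with at least 4. With at least 3 UMIs of any members it was 3.28 over all cells. No paired analysis was possible because each condition had 1 library. Members with few UMIs in resting cells, such as Ifit3, Mx1 and Samhd1, could not be compared there at this depth.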
